A study of Mus musculus with 9 samples.

Results

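The 10 genes described here encode neural RNA-binding proteins of 6 families: Elavl2, Elavl3 and Elavl4 of the Elavl (Hu) family, Rbfox2 and Rbfox3 of the Rbfox family, Nova1, Celf4, the Musashi genes Msi1 and Msi2, and Qk, which encodes Quaking. They were chosen by name, not by a threshold on their values, but with earlier results of these data known. All 10 were among the 14477 genes of the deposited table. The table holds 9 RNA-seq libraries made from cells of adult mice of the strain B6.Cg-Tg(Nes-EGFP)1Yamm, in which nestin gene sequences drive a green fluorescent reporter. Cells were dissociated from the dentate gyrus (DG, 5 libraries) or the subventricular zone (SVZ, 4 libraries), the neurogenic regions of the adult brain, and sorted on the reporter's fluorescence. All mice had standard housing and no treatment, so the tissue is what separates the groups. The labels give no age beyond adult and do not say whether a library came from 1 animal or from a pool. The p-values therefore set the difference between tissues against the spread between these libraries, not between known animals.

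RNA-binding proteins decide which exons of a transcript are kept and how long an mRNA lasts, where it goes and how much protein it gives. Elavl proteins bind U-rich and AU-rich stretches and are known for stabilising neuronal mRNAs, Rbfox and Nova proteins steer neuronal exons, Celf proteins act on splicing, stability and translation, Musashi proteins are translation regulators of stem and progenitor cells, and Quaking is a glial regulator of myelin mRNAs. In the adult niches, stem cells pass through dividing progenitors to neuroblasts, and the nuclear antigen NeuN used to mark mature neurons is the product of Rbfox3.

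Members of a family have diverged in sequence, which matters for counting their reads apart. The stretches below are the longest runs of identical bases between the coding sequences of Elavl3 and Elavl4 and of Msi1 and Msi2 (GENCODE M21 on GRCm38, written 5′ to 3′ on the coding strand). They are shown because these are the places where reads of the paired genes look most alike, and every letter in them is shared. How the authors treated reads that match more than 1 gene is not stated.
Elavl3 and Elavl4: ttcggcttcgtcaccatgaccaactacga
Msi1 and Msi2: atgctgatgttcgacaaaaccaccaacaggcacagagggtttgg
The Elavl run has 29 bases and lies in exon 7 of the chosen transcript of both genes, at chr9:22018600-22018628 (minus strand) for Elavl3 and at chr4:110206429-110206457 (minus strand) for Elavl4. The Musashi run has 44 bases and crosses from exon 7 into exon 8 of both genes, between chr5:115438725-115440491 (plus strand) for Msi1 and chr11:88413984-88480042 (minus strand) for Msi2. Over the aligned coding bases, identity was 77.9% for Elavl3 with Elavl4, 77.6% for Elavl2 with Elavl4, 75.1% for Elavl2 with Elavl3, 72.6% for Msi1 with Msi2 and 67.5% for Rbfox2 with Rbfox3. The longest shared run was 23 bases for Elavl2 with Elavl4, 17 for Elavl2 with Elavl3 and 14 for Rbfox2 with Rbfox3.

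Promoter sequences were at hand for 7 of the 10 genes (RefSeq, GRCm38.p6). The 250 bases before the start site are shown for Elavl3 and Rbfox3, because these neuronal genes differed between the tissues in opposite directions. Capitals mark CANNTG, the E-box core that proneural basic helix-loop-helix factors bind, which reads the same on either strand.
Elavl3, chr9:22052024-22052273, minus strand: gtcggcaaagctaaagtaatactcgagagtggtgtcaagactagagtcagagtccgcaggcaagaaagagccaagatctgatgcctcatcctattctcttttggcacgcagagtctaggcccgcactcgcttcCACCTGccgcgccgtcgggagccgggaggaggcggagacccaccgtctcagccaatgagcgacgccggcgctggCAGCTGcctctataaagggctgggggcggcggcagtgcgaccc
Rbfox3, chr11:118761042-118761291, minus strand: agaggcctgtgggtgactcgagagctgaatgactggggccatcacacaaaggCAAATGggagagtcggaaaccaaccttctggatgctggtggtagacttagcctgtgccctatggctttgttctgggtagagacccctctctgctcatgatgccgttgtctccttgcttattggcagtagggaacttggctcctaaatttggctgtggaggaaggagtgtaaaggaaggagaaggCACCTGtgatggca
Each window held 2 CANNTG matches, and 66.2% of the 32851 promoter windows of this length held at least 1. The windows differed in CG dinucleotides, with 20 in Elavl3 and 3 in Rbfox3 against a median of 6 over all windows. The RefSeq start of Rbfox3 used here lies inside the longer gene of the GENCODE annotation. Among the other promoters read, Qk had 52 CG dinucleotides and 84.8% G and C and held the letters GGGCGG or CCGCCC 5 times (present in 32.7% of all windows), and Nova1 had 11 CG dinucleotides and 1 CANNTG. These matches describe the letters only.

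Libraries held 31126803 to 41164044 reads. Nestin itself was read in all of them, at 5.89 to 6.99 log2 CPM (the base-2 logarithm of reads scaled to a common library total, CPM) in DG and 6.87 to 7.61 in SVZ, and Sox2 at 4.88 to 5.26 and 6.09 to 6.40. The levels of cell type markers differed between the sorted fractions. All 11 astroglia markers measured (17475 to 26311 summed CPM in DG, 2038 to 3854 in SVZ), all 8 oligodendrocyte precursor markers (1753 to 3659 and 73.2 to 300.4), all 9 endothelial markers (968 to 1913 and 8.32 to 51.9), all 9 pericyte and smooth muscle markers (5208 to 10861 and 70.6 to 164) and all 6 fibroblast markers (646 to 1386 and 24.7 to 86.0) were higher in DG. Higher in SVZ were 12 of 13 neuroblast markers (9716 to 13493 in DG, 28411 to 33847 in SVZ), all 10 markers of dividing cells (969 to 1405 and 3836 to 4469) and all 8 ependymal markers (11.1 to 26.8 and 110 to 270.2). Of 15 mature neuron markers, 4 passed toward DG and 4 toward SVZ (1038 to 1869 and 1953 to 2242). Of 9 oligodendrocyte markers, 4 passed toward DG and 1 toward SVZ (2913 to 5384 and 1465 to 2962). None of 8 microglia markers was higher in DG and 2 were higher in SVZ (250 to 916 and 207 to 1071). Of the mature neuron markers, Slc32a1 had no read in at least 1 library, and every other listed marker measured had reads in all libraries.

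A pair of DG libraries stood apart before any comparison. In DG 3 the mean of the mature neuron markers was 5.40 log2 CPM, against 3.53 to 3.64 in the other DG libraries. In DG 2 the mean of the neuroblast markers was 8.66 log2 CPM, against 7.32 to 7.62. Of these markers, Dlx1 was at 6.14 in DG 2, against 1.88 to 2.75 in the other DG libraries and 8.82 to 9.18 in SVZ. Dlx2 was at 3.40 in DG 2, against -1.03 to 0.10 in the other DG libraries and 6.16 to 6.68 in SVZ. In bulk RNA such as this, fewer cells of a type and less RNA per cell cannot be told apart, and the part of cell mixture in the results below was not tested. All 10 genes kept their direction and stayed past the test when DG 2, DG 3 or any other library was left out.

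Most of the genes were higher in SVZ; Rbfox3, Nova1 and Qk were higher in DG. By limma with Benjamini-Hochberg adjustment over all genes (threshold 0.05), 3 of 10 passed as higher in DG, where 32.9% of all genes tested did, and 7 of 10 as higher in SVZ, where 33.7% did. In none of the 10 did the DG and SVZ libraries overlap: 3 had every DG library above every SVZ library (29.7% of all genes), and 7 had every DG library below (28.3% of all genes). Because the 10 genes were chosen with earlier results of these data known, these counts are no independent test against all genes. The median log2 fold change (DG minus SVZ, on log2 CPM with 1 read added, which understates the fold of genes with few reads) was -0.85 over the 10 genes and -0.07 over all genes. Changes ran from 1.44-fold for Elavl2 to 6.01-fold for Rbfox3.

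**Figure D1:**
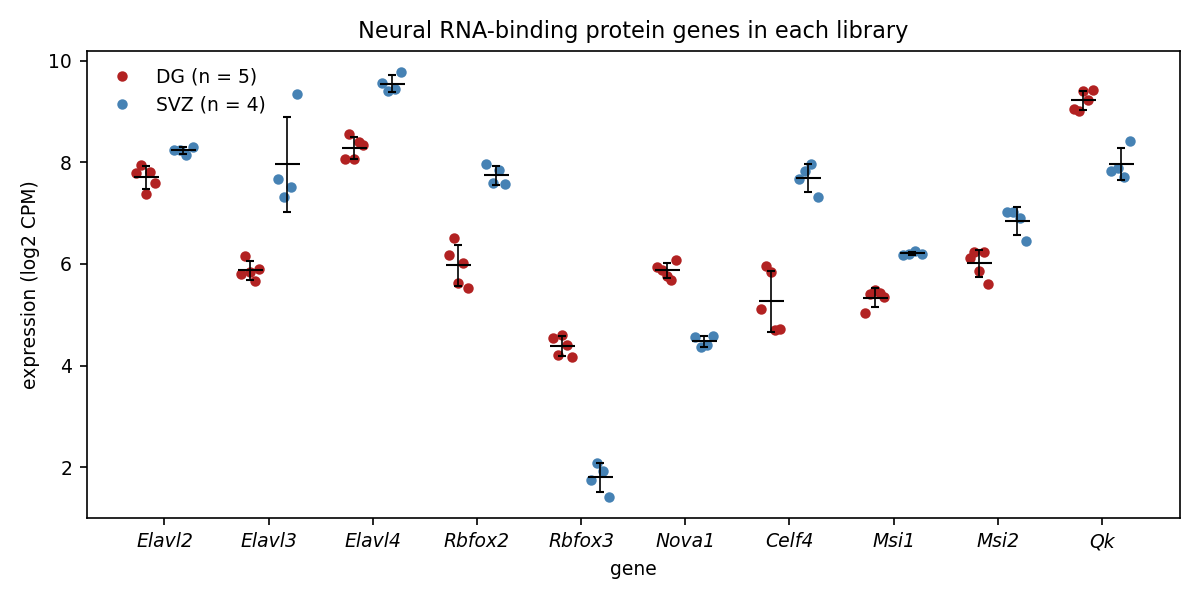
Expression of the 10 genes (vertical axis, log2 CPM) in 5 DG and 4 SVZ libraries; each point is 1 library, and black marks show the mean and SD. Rbfox3, Nova1 and Qk lie higher in DG, the other genes lie higher in SVZ, and the lone high SVZ point of Elavl3 is SVZ 4 at 9.35.

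The neuronal Elavl genes were all higher in SVZ, by unequal amounts. Elavl2 (HuB; ENSMUSG00000008489, chr4:91250763-91400785) was at 7.80, 7.95, 7.37, 7.81 and 7.59 log2 CPM in DG 1 to DG 5 and at 8.24, 8.24, 8.15 and 8.31 in SVZ 1 to SVZ 4. The SVZ libraries sat within a narrow band above all DG libraries, and the log2 fold change was -0.53 (SE 0.11, adjusted p = 0.00166 by limma). Elavl4 (HuD; ENSMUSG00000028546, chr4:110203722-110351909), the family member best known for stabilising mRNAs of growing neurites, was at 8.07, 8.56, 8.07, 8.40 and 8.35 in DG and at 9.56, 9.41, 9.45 and 9.78 in SVZ. DG 2 was the highest DG library for both genes and SVZ 4 the highest SVZ library. The log2 fold change of Elavl4 was -1.26 (SE 0.12, adjusted p = 5.12e-06 by limma), or 2.40-fold.

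Elavl3 (HuC; ENSMUSG00000003410, chr9:22015005-22052023), a marker of newborn neurons, was at 5.81, 6.16, 5.85, 5.66 and 5.90 log2 CPM in DG and at 7.67, 7.32, 7.51 and 9.35 in SVZ. The DG libraries agreed closely, and SVZ 4 stood well above the other SVZ libraries. The log2 fold change was -2.09 (SE 0.34, adjusted p = 0.000254 by limma), or 4.25-fold, and -1.63, or 3.09-fold, without SVZ 4. Exons of Elavl3 share 3.72% of their length with Gm49318 on the same strand, and how reads there were assigned is not stated. Elavl1 (HuR), the relative expressed in most tissues, was lower than in SVZ in every DG library, at 5.28 to 5.78 in DG and 6.12 to 6.83 in SVZ (log2 fold change -0.91, SE 0.16, adjusted p = 0.000378 by limma).

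The Rbfox genes went in opposite directions. Rbfox2 (ENSMUSG00000033565, chr15:77078990-77307004), the member expressed well beyond neurons and the one found in progenitors, was at 6.18, 6.52, 5.63, 6.01 and 5.52 log2 CPM in DG and at 7.96, 7.59, 7.85 and 7.57 in SVZ. Rbfox3 (NeuN; ENSMUSG00000025576, chr11:118489762-118911597) was at 4.54, 4.20, 4.60, 4.40 and 4.17 in DG and at 1.75, 2.09, 1.93 and 1.42 in SVZ. Rbfox2 was thus lower in every DG library and Rbfox3 higher in every one. The log2 fold changes were -1.77 for Rbfox2 (SE 0.19, adjusted p = 1.14e-05 by limma) and 2.59 for Rbfox3 (SE 0.18, adjusted p = 3.96e-07 by limma), 3.41-fold and 6.01-fold. Rbfox3 was a weakly expressed gene in either tissue, with 659 to 883 reads in DG and 86 to 132 in SVZ.

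In DG 3, the library with the highest mature neuron markers, Rbfox3 was at 4.60 log2 CPM, against 4.17 to 4.54 in the other DG libraries. Rbfox1 (chr16:5885355-7411526), the relative typical of mature neurons and muscle, was at 4.77, 4.38, 5.96, 4.72 and 5.07 log2 CPM in DG and at 2.75, 3.34, 3.49 and 2.81 in SVZ. It was highest in DG 3 and lowest among DG libraries in DG 2. Its log2 fold change was 1.88 (SE 0.29, adjusted p = 0.000175 by limma), or 3.69-fold, and it stayed called without DG 3.

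Nova1 (ENSMUSG00000021047, chr12:46694517-46818929), a neuronal splicing factor, was higher in DG, at 5.95, 5.89, 5.77, 5.69 and 6.08 log2 CPM against 4.57, 4.37, 4.40 and 4.58 in SVZ. Both tissues varied little, and the log2 fold change was 1.40 (SE 0.11, adjusted p = 1.16e-06 by limma), or 2.63-fold. Its relative Nova2 went the other way, at 4.43, 4.74, 4.86, 4.47 and 4.49 in DG and 5.93, 5.40, 5.76 and 6.00 in SVZ (log2 fold change -1.18, SE 0.15, adjusted p = 3.73e-05 by limma). An antisense gene covers 31.7% of the exon length of Nova2, and the library kit does not mark strand, so reads there cannot be assigned. Gm33869 shares 3.54% of the exon length of Nova1 on the same strand.

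Celf4 (ENSMUSG00000024268, chr18:25477632-25754157), a neuronal regulator of synaptic mRNAs, had the largest fold toward SVZ of the 10 genes. It was at 5.11, 5.96, 5.84, 4.70 and 4.72 log2 CPM in DG and at 7.67, 7.83, 7.97 and 7.32 in SVZ. DG 2 and DG 3, which had the most neuroblast and the most mature neuron marker signal, were above the other DG libraries, and all DG libraries stayed below SVZ. The log2 fold change was -2.43 (SE 0.27, adjusted p = 1.48e-05 by limma), or 5.40-fold. All 5 of its relatives were also called higher in SVZ, with log2 fold changes of -1.09 for Celf1, -0.94 for Celf2, -1.43 for Celf3, -0.55 for Celf5 and -2.14 for Celf6. For Celf5 the libraries overlapped (3.63 to 4.46 in DG, 4.43 to 4.87 in SVZ, adjusted p = 0.0187 by limma), and Celf6 was near the lower end of detection, with 8 to 27 reads in DG and 50 to 83 in SVZ. Genes on the opposite strand cover 8.14% of the exon length of Celf5 and 7.58% of that of Celf2, and reads there cannot be assigned either.

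The Musashi genes were higher in SVZ by nearly the same factor. Msi1 (ENSMUSG00000054256, chr5:115429599-115455698), a marker of neural stem and progenitor cells, was at 5.03, 5.41, 5.48, 5.43 and 5.34 log2 CPM in DG and at 6.18, 6.19, 6.26 and 6.20 in SVZ. Msi2 (ENSMUSG00000069769, chr11:88339382-88718513) was at 6.11, 6.24, 5.87, 6.23 and 5.61 in DG and at 7.02, 7.03, 6.90 and 6.45 in SVZ. The SVZ values of Msi1 were almost identical to one another, while Msi2 was lowest in SVZ 4. The log2 fold changes were -0.87 for Msi1 (SE 0.11, adjusted p = 3.03e-05 by limma) and -0.84 for Msi2 (SE 0.16, adjusted p = 0.000805 by limma).

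Qk (ENSMUSG00000062078, chr17:10202601-10319854) had the highest read level of the 3 genes that were higher in DG. It was at 9.06, 9.02, 9.40, 9.22 and 9.43 log2 CPM in DG and at 7.83, 7.89, 7.71 and 8.43 in SVZ. SVZ 4 came closest to DG without reaching it. The log2 fold change was 1.26 (SE 0.15, adjusted p = 2.20e-05 by limma), or 2.40-fold. The astroglia, oligodendrocyte precursor, endothelial, pericyte and smooth muscle, and fibroblast marker lists moved in the same direction between the tissues. Their ranges did not overlap between the tissues, and their part in the level of Qk was not tested.

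Other genes of the STAR family, to which Quaking belongs, were split. Khdrbs2, a neuronal splicing regulator, was at 4.10, 4.04, 3.78, 3.44 and 3.96 log2 CPM in DG and at 0.96, 0.56, 1.17 and 0.65 in SVZ, the largest change among the 12 relatives (log2 fold change 3.03, SE 0.20, adjusted p = 3.39e-07 by limma, 8.17-fold). Khdrbs3 went the other way, at 4.21, 4.92, 4.20, 4.34 and 4.30 in DG and 6.46, 6.11, 6.37 and 6.48 in SVZ (log2 fold change -1.96, SE 0.16, adjusted p = 1.30e-06 by limma). Khdrbs1 (log2 fold change -1.17) and the branch-point binding factor Sf1 (-0.72) were also called higher in SVZ. Of the 12 relatives, Rbfox1 and Khdrbs2 passed toward DG and the other 10 toward SVZ, where 32.9% and 33.7% of all genes did.

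**Figure D2:**
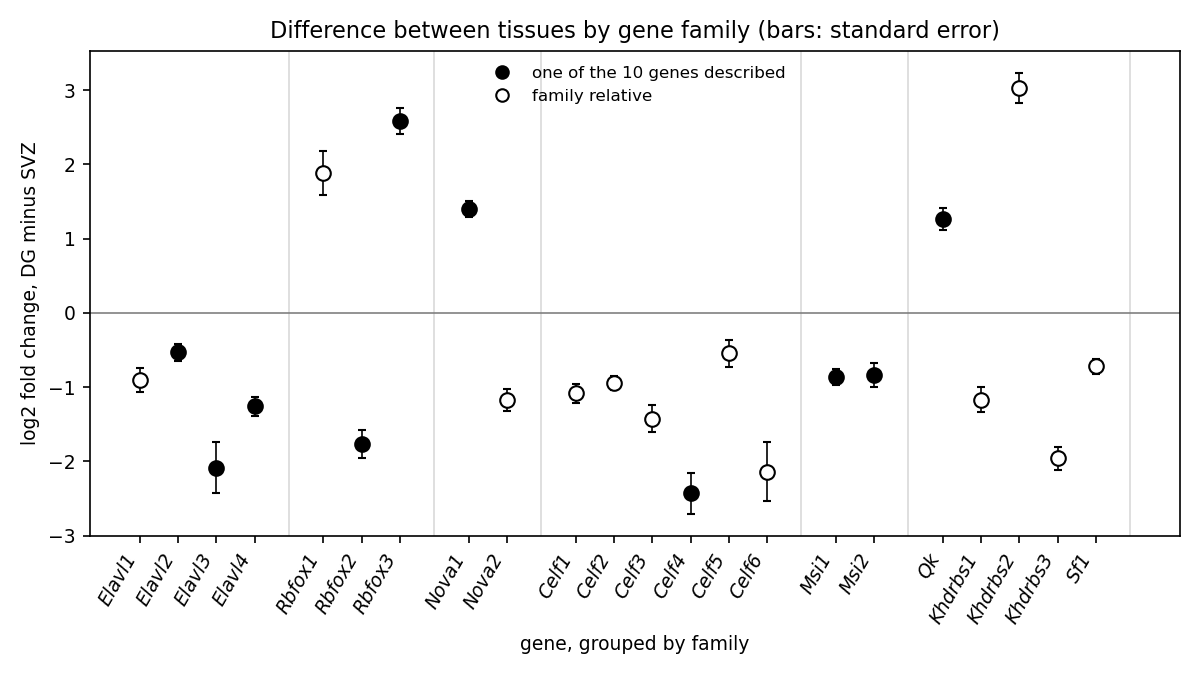
Log2 fold change, DG minus SVZ (vertical axis), of the 10 genes (filled) and their 12 family relatives (open), grouped by family; bars are standard errors from limma. The Elavl, Celf and Musashi genes all lie below 0, while the Rbfox, Nova and STAR families have genes on both sides.

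Ratios between family members within a library do not depend on its depth or scaling. A set of 5 such ratios was compared by exact two-sided permutation of the libraries over 126 arrangements, where the smallest possible p is 0.00794, with adjustment over the 5 ratios. The log2 ratio of Rbfox3 to Rbfox2 was -1.64, -2.32, -1.03, -1.61 and -1.35 in DG and -6.21, -5.49, -5.93 and -6.15 in SVZ. The means were -1.59 ± 0.48 (SD, n = 5) and -5.95 ± 0.32 (SD, n = 4), a difference of 4.35 or 20.5-fold (exact permutation p = 0.00794, adjusted p = 0.00992). Every DG library was already above SVZ for Rbfox3 and below SVZ for Rbfox2. The p of this ratio could therefore only be the smallest possible, and it adds nothing to the results of the genes.

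The Elavl ratios also differed. Elavl2 to Elavl3 was 1.99, 1.79, 1.53, 2.15 and 1.69 on the log2 scale in DG and 0.56, 0.92, 0.63 and -1.04 in SVZ, a difference of 1.56, and of 1.12 without SVZ 4. Elavl2 to Elavl4 was -0.59 ± 0.19 (SD, n = 5) in DG and -1.32 ± 0.12 (SD, n = 4) in SVZ, a difference of 0.73. Elavl3 to Elavl4 was -2.26, -2.41, -2.23, -2.74 and -2.45 in DG and -1.89, -2.10, -1.94 and -0.44 in SVZ, a difference of -0.83, and of -0.44 without SVZ 4. In none of the 3 ratios did the tissues overlap, and each reached the smallest possible exact permutation p (0.00794, adjusted p = 0.00992). Of the neuronal Elavl genes, Elavl2 thus had the smallest excess in SVZ and Elavl3 the largest.

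The Musashi ratio showed no such shift. Msi1 to Msi2 was -1.08, -0.83, -0.38, -0.81 and -0.27 on the log2 scale in DG and -0.84, -0.84, -0.64 and -0.25 in SVZ. The ranges overlapped almost fully, and the difference was -0.03 (exact permutation p = 0.913), with SDs of 0.34 and 0.28 that set how small a shift could have been seen.

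**Figure D3:**
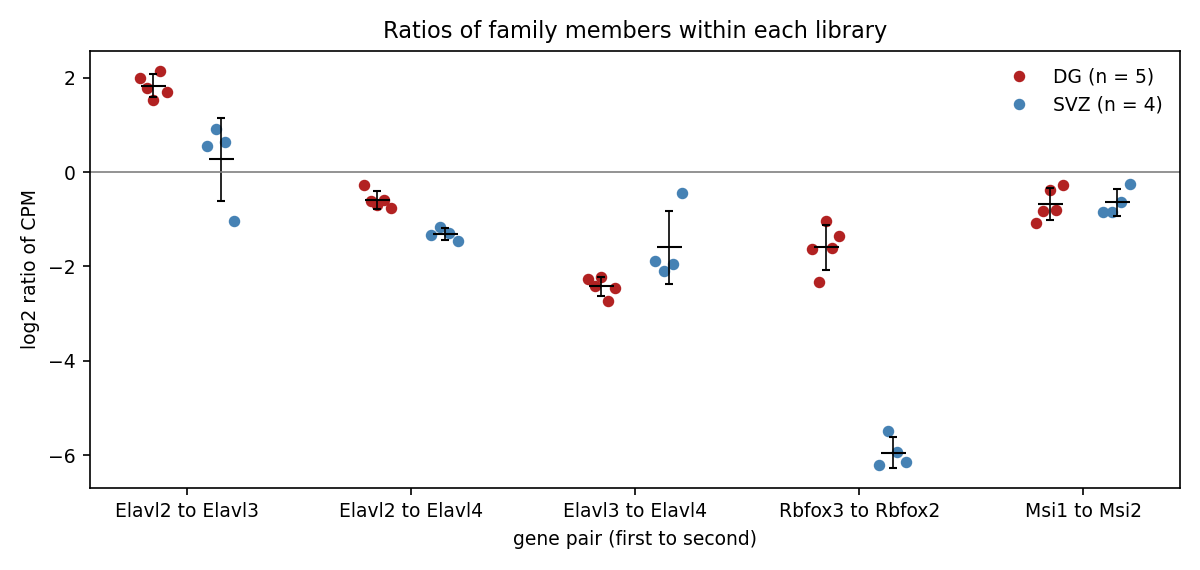
Log2 ratio of 2 family members (vertical axis) for 5 gene pairs, with 1 point per library in DG (n = 5) and SVZ (n = 4), and mean and SD in black. Rbfox3 to Rbfox2 is separated most (means -1.59 and -5.95), SVZ 4 stands away from the other SVZ libraries in the Elavl3 ratios, and Msi1 to Msi2 overlaps.

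Per base of exon length, the make-up of the families can be read as shares, given here as a description. Rbfox2 made up 91.0% ± 2.19 (SD, n = 4) of the Rbfox1 to Rbfox3 level in SVZ and 42.0% ± 12.9 (SD, n = 5) in DG. Rbfox1 made up 6.91% ± 1.80 in SVZ and 39.2% ± 13.1 in DG, and Rbfox3 2.08% ± 0.45 and 18.8% ± 2.02. Per length of the longest transcript, the Rbfox3 share in SVZ was 3.18%, and in DG Rbfox1 (39.9%) stood ahead of Rbfox2 (35.4%), so which of them leads in DG depends on the length used. Among DG libraries the Rbfox1 share per exon length was lowest in DG 2, at 24.7%, and highest in DG 3, at 57.9%.

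Nova1 made up 69.8% ± 4.10 of the Nova level in DG and 28.1% ± 2.55 in SVZ, so the leading gene of the pair switched. The Nova2 level may hold reads of the antisense gene that covers 31.7% of its exon length. Elavl4 was the leading neuronal Elavl gene in every library, at 63.3% ± 2.65 in DG and 64.9% ± 6.44 in SVZ. Elavl2 made up 27.4% ± 2.63 of the neuronal Elavl level in DG and 17.0% ± 2.86 in SVZ, and Elavl3 9.32% ± 1.12 and 18.1% ± 9.20, with 31.9% in SVZ 4. Celf4 made up 14.1% ± 3.87 of the Celf1 to Celf6 level in DG and 30.0% ± 5.95 in SVZ. Msi1 and Msi2 had near-equal shares in both tissues, with Msi1 at 52.9% ± 5.75 and 53.5% ± 4.77.

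**Figure D4:**
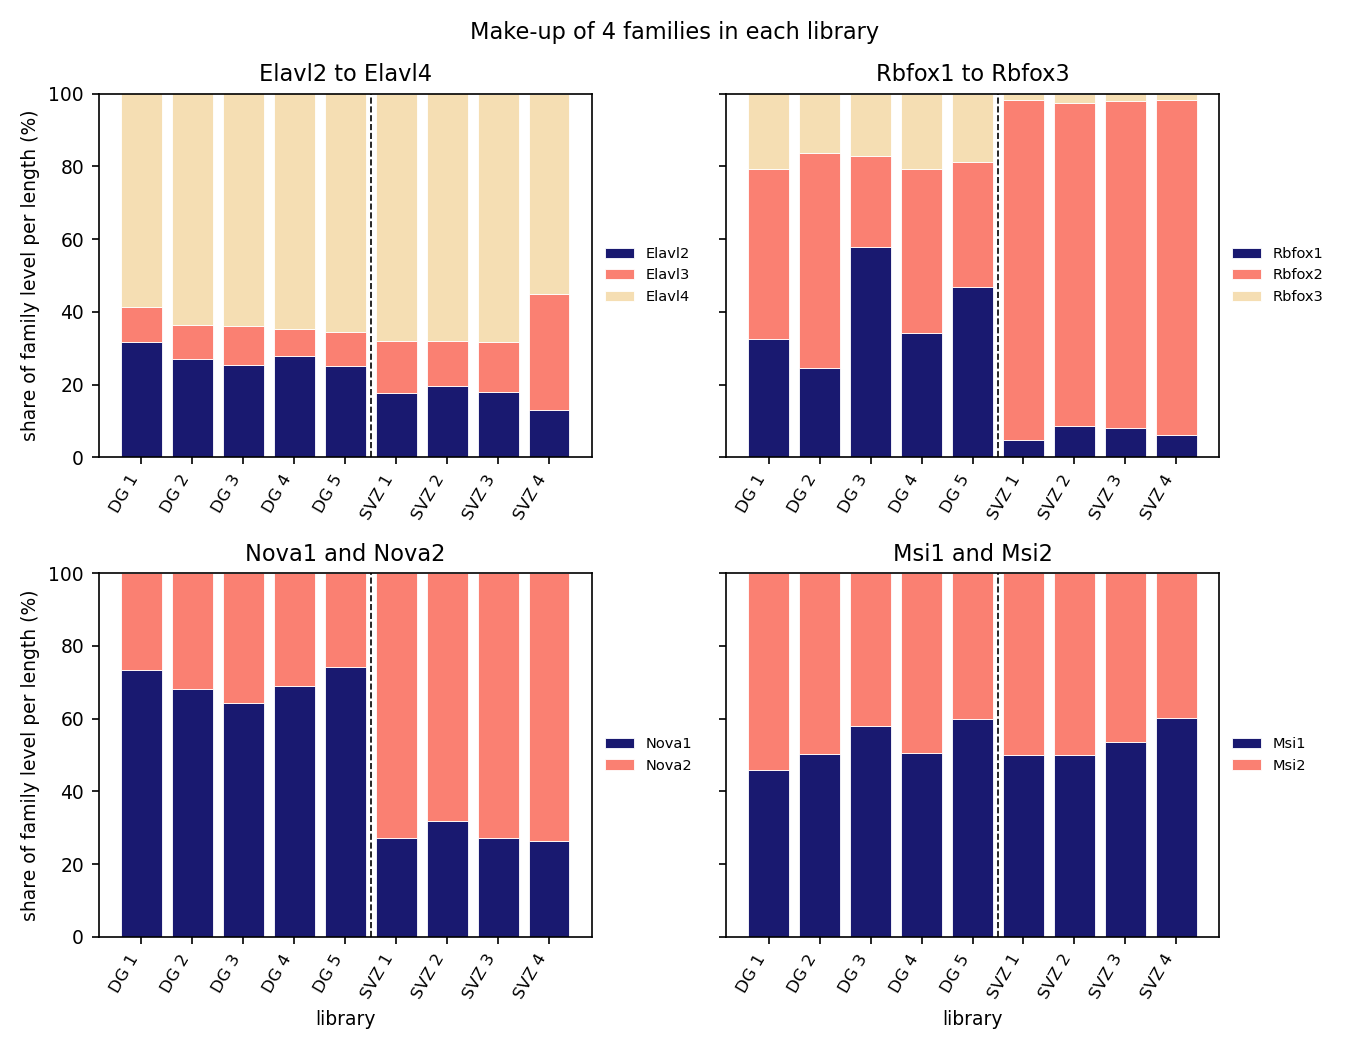
Share of each gene in the level of its family per exon length (vertical axis, %) in every library; the dashed line separates DG from SVZ. Rbfox2 takes 88.6% to 93.6% in SVZ libraries and 25.0% to 58.9% in DG libraries, Nova1 exceeds Nova2 in every DG library and not in SVZ, and Msi1 and Msi2 have similar shares in both.

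The order of the levels per length (CPM per kilobase of exon, RPKM) showed which proteins' mRNAs dominate. In DG the order was Elavl4 (58.7 ± 8.80), Qk (42.3 ± 5.52), Elavl2 (25.3 ± 3.81), Elavl3 (8.57 ± 1.12), Rbfox2 (7.97 ± 2.28), Msi1 (7.01 ± 0.81), Nova1 (6.74 ± 0.72), Msi2 (6.28 ± 1.11), Celf4 (4.81 ± 2.01) and Rbfox3 (3.61 ± 0.48; SD, n = 5 throughout). The libraries of neighbours in this order did not overlap down to Elavl3, and from Elavl3 on every neighbouring pair overlapped. In SVZ, Elavl4 led at 140.2 ± 16.7 RPKM (SD, n = 4), followed by Elavl3 (43.4 ± 34.1), Elavl2 (36.3 ± 1.66), Rbfox2 (26.5 ± 3.59), Celf4 (24.5 ± 4.55), Qk (17.9 ± 4.25), Msi1 (12.7 ± 0.33), Msi2 (11.2 ± 1.94), Nova1 (2.55 ± 0.20) and Rbfox3 (0.60 ± 0.12). The place of Elavl3 rested on SVZ 4, at 94.5 RPKM against 23.1 to 29.6 in the other SVZ libraries, and on the length used. Without SVZ 4, a check chosen after seeing the data, Elavl3 was at 26.4 ± 3.25 and below Elavl2 at 35.6 ± 1.27 (SD, n = 3). With all SVZ libraries, the neighbours that overlapped were Elavl3 with Elavl2, Rbfox2 with Celf4, Celf4 with Qk, and Msi1 with Msi2. Qk stood at rank 2 in DG and 6 in SVZ, and Celf4 at rank 9 in DG and 5 in SVZ. The order depends on the length used: per length of the longest transcript, Celf4 was at 52.7 RPKM in SVZ and Rbfox2 at 31.2. In DG, Celf4 was then at 10.3, above Msi2 (10.2), Rbfox2 (9.39) and Nova1 (8.24). In SVZ, with all libraries, Elavl3 was then at 59.7, below Elavl2 at 71.9.

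Within a tissue, the genes did not vary as 1 block. Over the 9 libraries, the Pearson correlations of their deviations from the tissue mean (45 pairs) ran from -0.86, for Elavl4 with Rbfox3, to 0.74, for Rbfox2 with Msi2, with a median of -0.08, and 6 pairs were above 0.5 and 8 below -0.5. These values are descriptions over libraries that share their scaling. DG 2 was the highest DG library for Elavl2, Elavl3, Elavl4, Rbfox2, Celf4 and Msi2 and the lowest for Qk. SVZ 4 was the highest SVZ library for Elavl2, Elavl3, Elavl4, Nova1 and Qk, and the lowest for Rbfox2, Rbfox3, Celf4 and Msi2. Deviations of the 10 genes were also set against those of the mean of each of the 11 marker lists, 110 correlations over 9 libraries with a median of -0.08. Those above 0.7 were Rbfox2 with the neuroblast markers (0.80) and with the pericyte and smooth muscle markers (0.74), Nova1 with the oligodendrocyte precursor markers (0.79) and Elavl2 with the neuroblast markers (0.74). Those below -0.7 were Qk with the ependymal markers (-0.84), Elavl2 with the mature neuron markers (-0.83) and Celf4 with the markers of dividing cells (-0.81). DG 3 lay far from the other DG libraries in the mature neuron markers, and DG 2 in the neuroblast markers. Correlations with these lists lean on those libraries and were not computed without them. Rbfox3 with the mature neuron markers gave 0.51 and Celf4 0.55. Qk gave 0.48 with the oligodendrocyte markers, 0.14 with the astroglia markers and -0.07 with the oligodendrocyte precursor markers. It gave -0.16 with the endothelial, -0.29 with the fibroblast and -0.58 with the pericyte and smooth muscle markers.

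**Figure D5:**
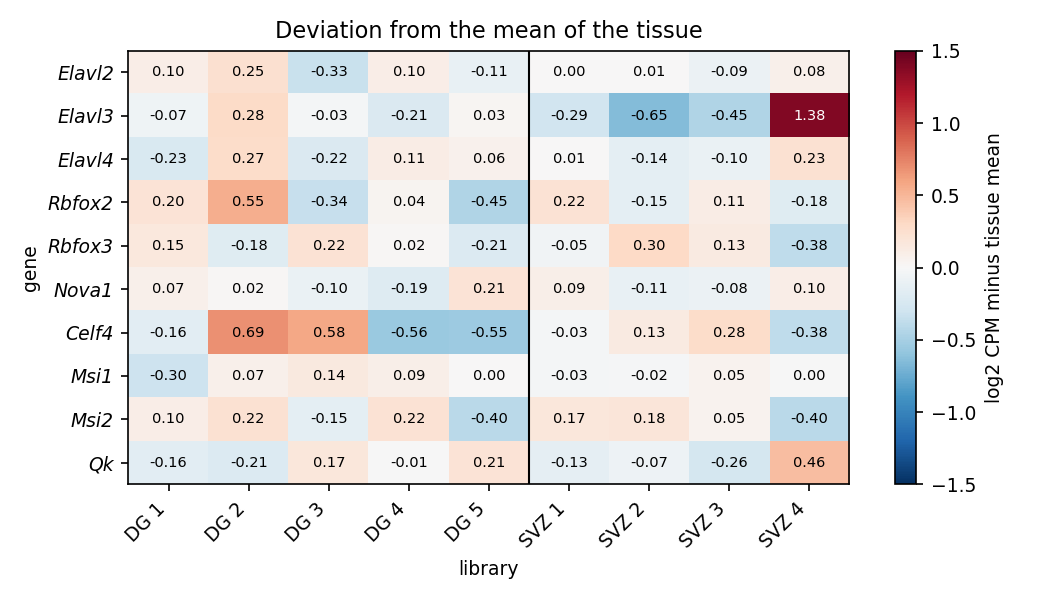
Deviation of each of the 10 genes from the mean of its tissue (colour and printed value, log2 CPM) in every library; the black line separates DG from SVZ. The largest deviation is Elavl3 in SVZ 4 (1.38), DG 2 and DG 3 are high for Celf4 (0.69 and 0.58), and Qk is high in SVZ 4 (0.46).

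The genes whose deviations were most like each member were taken from 9476 genes whose mean reached 3 log2 CPM, leaving out clone, predicted-gene and pseudogene names, as the highest of many correlations over 9 libraries and with no test. For Rbfox3 they were Tmem38b (r = 0.99), Cplx2 (0.98), which encodes a regulator of synaptic vesicle release, and Tmem184b (0.97), all higher in DG, as Rbfox3 was. Nearest genes did not always share the direction of the member: Rasl11a, named below for Rbfox2, was higher in DG (log2 fold change 1.57). For Qk they were Glud1 (0.98), the glutamate dehydrogenase, Fkbp9 (0.96) and Gpat4 (0.96). Nova1 was followed by Cipc (0.97) and by Gria4 (0.96) and Cacng4 (0.94), an AMPA receptor subunit and an AMPA receptor auxiliary subunit.
Rbfox2 was followed by Rasl11a (0.98), Katnal1 (0.98) and Cep97 (0.97), and Elavl4 by Tsn (0.98), Cetn3 (0.97) and Pus10 (0.96). Elavl3 was followed by Prpsap1 (0.97), Slc6a8 (0.97) and Arf6 (0.97), and Elavl2 by D10Jhu81e (0.94), Paip2b (0.93) and Orc4 (0.93). The deviation of Elavl3 was 1.38 in SVZ 4, and its nearest genes were not sought without that library. Msi2 was followed by Kat7 (0.97), Arhgap6 (0.97) and Hist1h1e (0.97), Celf4 by Timmdc1 (0.94), Chic2 (0.93) and Rhob (0.93), and Msi1 by Nudt5 (0.91), Ammecr1 (0.90) and Tmem43 (0.86).

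Other RNA-binding genes were read beside the families, with 32.9% of all genes passing toward DG and 33.7% toward SVZ. Of 18 other neural splicing regulators 16 were measured, of which 4 passed toward DG and 8 toward SVZ. Ptbp2, the neuronal polypyrimidine tract protein (log2 fold change -1.14, SE 0.14, adjusted p = 2.65e-05 by limma), Srrm4, the activator of neuronal microexons (-1.07), and Hnrnpll (-1.20) were higher in SVZ. Mbnl1, a muscleblind splicing factor, was higher in DG (0.74, SE 0.10, adjusted p = 7.99e-05 by limma), as was Rbm20 (1.67). Esrp1, an epithelial splicing factor, had 46 to 135 reads in DG and 0 or 1 in each SVZ library (adjusted p = 7.34e-07 by limma), and its fold depends on the reads added before taking logs.

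Of 35 genes for mRNA stability, transport and translation 31 were measured, of which 9 passed toward DG and 17 toward SVZ. The smallest adjusted p toward DG belonged to Rbpms (log2 fold change 3.10, SE 0.22), Rbms1 (2.89, SE 0.21) and Cpeb1 (2.40, SE 0.23), the last a regulator of cytoplasmic polyadenylation. The astroglia, oligodendrocyte precursor, endothelial, pericyte and smooth muscle, and fibroblast markers above had the same direction, and their part in these genes was not tested. Toward SVZ it belonged to Syncrip (-1.15, SE 0.11), Caprin1 (-1.07, SE 0.11), a component of RNA granules, and Mex3a (-1.48, SE 0.15), which is known in progenitors. Together with the 12 relatives, 15 of 59 measured genes passed toward DG and 35 toward SVZ, with a median log2 fold change of -0.61. Over all genes, 32.9% passed toward DG and 33.7% toward SVZ, with a median of -0.07.

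Among mRNAs that the members are known to bind or splice, directions differed. Numb, whose translation Musashi represses, was at 6.36, 6.15, 6.35, 6.18 and 6.03 log2 CPM in DG and at 5.15, 5.50, 5.41 and 5.60 in SVZ (log2 fold change 0.80, SE 0.12, adjusted p = 0.000118 by limma), opposite in direction to Msi1 and Msi2. Gap43, a growth cone mRNA stabilised by Elavl4, was at 5.91, 5.83, 5.43, 5.52 and 5.90 in DG and at 6.18, 6.11, 6.09 and 6.17 in SVZ (log2 fold change -0.42, SE 0.12, adjusted p = 0.00899 by limma). Mapt, which encodes tau and is also bound by Elavl4, was at 7.80 to 7.96 in DG and 8.12 to 8.71 in SVZ (log2 fold change -0.51, SE 0.11, adjusted p = 0.00172 by limma). Gap43 and Mapt had the direction of Elavl4 with smaller changes.

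Bdnf, another Elavl4 target, had the opposite direction, at 1.51, 1.34, 4.61, 1.77 and 1.91 log2 CPM in DG and -1.84, -0.88, -1.40 and -2.03 in SVZ. DG 3 was far above the other libraries, and each SVZ library had only 7 to 16 reads. The log2 fold change was 3.77 (SE 0.61, adjusted p = 0.000234 by limma), or 13.6-fold, and 3.17, or 9.01-fold, without DG 3. Of the myelin mRNAs that Quaking binds, Mag was higher in DG, as Qk was, at 5.96 to 7.43 log2 CPM in DG and 4.09 to 5.70 in SVZ (log2 fold change 1.49, SE 0.36, adjusted p = 0.00331 by limma). Mbp did not pass (-0.31, adjusted p = 0.252 by limma), at 9.07 to 9.91 in DG and 9.28 to 10.5 in SVZ.

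Scn8a and Glra2, neuronal channel mRNAs that carry exons controlled by Rbfox or Nova proteins, did not pass with all libraries. Scn8a, a sodium channel, was at 3.83, 4.08, 6.73, 3.79 and 3.62 log2 CPM in DG and at 4.39, 4.15, 4.19 and 5.02 in SVZ (log2 fold change -0.03, adjusted p = 0.963 by limma). DG 3 alone was above every SVZ library. Without DG 3, Scn8a was called higher in SVZ, at -0.61 (adjusted p = 0.0224 by limma). Glra2, a glycine receptor subunit, had a log2 fold change of -0.82 (adjusted p = 0.0713 by limma) and at -1.07 without DG 2 (adjusted p = 0.0156 by limma). The table counts whole genes, so it holds no measure of how these exons were spliced.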

How the data were processed

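RNA was measured in 9 libraries. Per the labels' protocols, cDNA came from template switching with a poly-dT primer, was amplified and sheared, and went into libraries that do not mark strand; no molecular identifiers are described, so the read counts carry amplification error. The submitters' processing notes name STAR, edgeR and mm10, with no versions, counter or filter stated. The deposited values are log2 CPM with a prior count of 1 read; whole reads were recovered from them for 100% of values (within 0.001 reads). Every gene exceeded 1 CPM in at least 3 libraries. Identifiers were named from GENCODE M21 (14428 of 14477 matched). Replicates of a tissue differed beyond sampling noise (chi-square divided by its degrees of freedom, 19.8 to 174).

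Tissues were compared with limma 3.58.1 in R 4.3.3, fitted to the deposited log2 values of all genes with a trend in the variance, and Benjamini-Hochberg adjustment at 0.05; the script was tested on simulated data. Within-family ratios were compared by exact permutation (Python 3.11.15, numpy 2.4.6). Levels per length used the union of annotated exons. The members and lists were chosen with earlier results of these data known. Genes were named by rule: all members and relatives, up to 3 genes per direction by adjusted p in each other RNA-binding list, listed bound or spliced mRNAs (some are not reported here), and the 3 genes nearest to each member. The alternatives were median-of-ratios scaling, prior counts of 5 and 0.25 reads, a minimum mean of 3 log2 CPM, limma-voom on recovered reads, no trend, a replicate block, the longest transcript as length, and leaving out each library.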

Additional observations from a re-analysis of the deposited data

Results flagged for a closer look

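Highest and lowest libraries were compared with the rest of their tissue for 54 groups of values, and 2 stood apart; chance marks about 1 in 20 such groups. Khdrbs3 was at 4.92 log2 CPM in DG 2, against 4.20 to 4.34 in the other DG libraries. DG 2 also had the highest mean of the neuroblast markers among DG libraries, and the part of this in the value was not tested. The log2 ratio of Elavl3 to Elavl4 was -0.44 in SVZ 4, against -2.10 to -1.89 in the other SVZ libraries.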

How the results depend on the processing

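All 10 members kept their direction and their call under the 16 alternatives tried, the 9 that leave out a library included, and the counts of 3 higher in DG and 7 higher in SVZ did not change in any of them. Of the other RNA-binding genes, 15 were higher in DG, and 9 with a minimum mean of 3 log2 CPM, which tests fewer genes. Same-numbered libraries of the tissues did not deviate together (r from -0.17 to 0.01 over 4 pairs, and 0 SVZ libraries correlated best with their own number). So few pairs cannot tell whether same-numbered libraries share an animal or a batch. With the number as a replicate block, 8786 of all genes were called, against 9642 without it. In that block the log2 ratios differed by 1.59 for Elavl2 to Elavl3, 0.77 for Elavl2 to Elavl4, -0.82 for Elavl3 to Elavl4 and 4.29 for Rbfox3 to Rbfox2, each with adjusted p = 0.156, because 4 pairs allow no exact sign-flip p below 0.125. Celf5 was not called in the block (-0.41, adjusted p = 0.0669 by limma), and the block changed no other call of a named gene. With the longest transcript as length, Celf4 in SVZ moved from 24.5 to 52.7 RPKM, above Rbfox2 at 31.2, so orders of level between genes depend on the length used. Of the family shares, 7 of the members' values moved by more than 1 SD with that length and 11 did not; of the relatives', 16 moved and 4 did not. Low read numbers limit Celf6, Esrp1 and Bdnf, whose fold of 13.6 was 10.4 and 14.5 with prior counts of 5 and 0.25 reads.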
